A study of Homo sapiens with 12 samples.

Results

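The integrated stress response (ISR) regulators described here are 10 genes: the transcription factors ATF4, ATF5, ATF3 and DDIT3, the phosphatase subunits PPP1R15A and PPP1R15B, and CHAC1, TRIB3, SESN2 and IBTK. They were chosen by gene symbol, with earlier results of these data known, from a deposited table of 15798 genes. All 10 were found and passed the filter on low counts that left 10663 genes for testing. That filter asked for at least 10 counts in enough input libraries to fill a group, and CHAC1 met it through its DMSO libraries alone, while the other 9 reached 10 counts in all input libraries. HCT116 cells, a human colorectal cancer line, were exposed for 24 h to 100 nM trametinib (MEKi, an inhibitor of the kinases MEK1/2) or to its solvent DMSO, and no other agent or genetic change distinguished the groups. All cells received 100 µg/ml cycloheximide, which halts elongating ribosomes, for 5 min before lysis. Cytoplasmic lysate gave randomly fragmented input RNA, a measure of mRNA abundance, and RNase I digestion gave ribosome footprints from the monosomal fraction. There were 3 replicates, which the study calls biological, in each of 4 groups: DMSO input, trametinib input, DMSO footprints and trametinib footprints. A single cell line, dose and time limit how far these groups serve as a model, and since every library was scaled to the others, a fall common to all mRNAs leaves no trace in these values.

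In the ISR, 4 kinases that sense different stresses phosphorylate the initiation factor eIF2, which slows the recycling of eIF2 by its exchange factor eIF2B and lowers translation of most mRNAs. A few mRNAs, with ATF4 as the textbook case, carry short upstream reading frames that divert ribosomes in unstressed cells and let more of them reach the coding sequence when eIF2 is phosphorylated. ATF4 then activates genes for amino acid supply and redox balance together with further regulators, and PPP1R15A closes the loop by directing a phosphatase to eIF2.

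The upstream start codons of the members whose ribosome density is followed most closely are shown first, because the counts cover annotated coding frames and do not include reads on upstream frames, except where such a frame overlaps the coding sequence. In the MANE Select transcripts (Gencode v44, GRCh38), 8 of the 10 members had at least 1 AUG in the leader ahead of the coding sequence and 7 had at least 2. Among the 10514 tested genes with such a transcript, 39.9% had at least 1 and 20.6% at least 2. ATF3 and CHAC1 had none. In ATF4, ATF5 and DDIT3 the last upstream frame ran past the coding start, by 83, 56 and 190 nt. Each line gives 27 nt of cDNA, 5′ to 3′, with the upstream start codon in capitals.
ATF4 upstream start 1: gcccgcccacagATGtagttttctctg
ATF4 upstream start 2: tccacggccaccATGgcgtattagggg
ATF4 upstream start 3: gcggcttaagccATGgcgcttctcacg
ATF5 upstream start 1: gtagccccggccATGgctctgtagcct
ATF5 upstream start 2: cttgctgcagccATGgagtcttccact
DDIT3 upstream start 1: actgagcgtatcATGttaaagatgagc
DDIT3 upstream start 3: acctgaaagcagATGtgcttttccaga
PPP1R15A upstream start 1: gttgttgatcttATGcaagacgctgca
PPP1R15A upstream start 2: cctgagggtgagATGaacgcgctggcc

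The 3 ATF4 start codons lie at chr22:39520586-39520588, chr22:39520648-39520650 and chr22:39520747-39520749 on the plus strand, in exons of the 5′ leader, and open frames of 1, 3 and 59 codons. Those of ATF5 lie at chr19:49929274-49929276 and chr19:49929396-49929398 on the plus strand and open frames of 3 and 59 codons. The DDIT3 codons shown lie at chr12:57520478-57520480 and chr12:57517436-57517438 on the minus strand and open frames of 34 and 73 codons, and a further AUG between them, 134 nt before the coding start, opens a frame of 31 codons. Those of PPP1R15A lie at chr19:48872455-48872457 and chr19:48872554-48872556 on the plus strand and open frames of 22 and 26 codons that end before the coding sequence. The last ATF4, ATF5 and DDIT3 windows cross an intron in the genome. Of the other members, SESN2 had 1 upstream AUG, PPP1R15B and TRIB3 had 2 each and IBTK had 5, and none of their frames reached the coding sequence.

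Coding counts summed to 2276693 to 2845568 in the input libraries and to 10127477 to 19181588 in the footprint libraries. Over all tested genes, input was the less precise measure, with a median SE of a log2 change of 0.22 against 0.15. Most members went the other way, with a larger SE in footprints than in input. The SE was 0.45 against 0.20 for ATF4 and 0.80 against 0.43 for PPP1R15A, while ATF3 had 0.38 against 0.42. The treatment label was checked on 5 genes that ERK signaling induces, all of which were lower in both assays and 3 of which passed the filter through DMSO alone, with DUSP6 at 1206 to 1613 normalized counts in DMSO input and 0 to 12.0 in trametinib input. Epithelial markers were abundant, with EPCAM, CDH1 and the keratins KRT8, KRT18 and KRT19 at 174 counts or more in every library. Of 5 markers of immune, fibroblast and endothelial cells, PTPRC, CD3E, DCN and PECAM1 held at most 3 counts in any library and COL1A1 14 to 148. The library of DMSO replicate 1 stood apart in both assays. Of all tested genes, 3.01% in input and 2.83% in footprints were at least 2-fold above the mean of DMSO replicates 2 and 3 there, and these included 7 and 8 of the 10 members. No member passed this upward limit in DMSO replicate 2 or 3 or in any trametinib replicate when each was set against the others of its group. Set so, the members' median log2 ratio in input was 1.58 in DMSO replicate 1, -0.53 in replicate 2 and -1.27 in replicate 3. In footprints it was 1.49, -0.48 and -1.55. DMSO replicate 3 also lay below replicate 2 for each member in both assays, with ATF4 footprints at 749 against 1615 normalized counts. The members' changes in input and footprints are therefore given with and without DMSO replicate 1.

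The first question was whether the regulators' mRNAs changed in abundance under MEK1/2 inhibition. In input, 8 of the 10 members were lower in trametinib at an adjusted p under 0.05, against 16.8% of all tested genes, and 0 were higher, against 15.4% (edgeR quasi-likelihood test, Benjamini-Hochberg adjustment over all tested genes). The 8 include CHAC1, which passed the filter only through its DMSO libraries. The median log2 change was -1.49 over the members and 0.00 over all genes. CHAC1, TRIB3 and DDIT3 had the largest fitted decreases, at 29.0-fold, 21.9-fold and 16.3-fold, while ATF3 and IBTK were not called. Without DMSO input replicate 1, 6 members were lower, against 18.0% of all genes, and 1, IBTK, was higher, against 16.6%, and the median over the members was -0.91.

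The second question was whether the mRNAs were occupied by fewer ribosomes. In footprints, the same test called 8 members lower, against 25.6% of all genes, and 0 higher, against 23.9%. The median log2 change was -3.00 over the members and -0.01 over all genes. With DMSO footprint replicate 1 left out, these 8 were still lower, against 30.5% of all genes, IBTK was higher, against 29.8%, and the median over the members was -1.71. Scaling by library totals raised the median footprint change of all genes by 0.18 and turned the calls over all genes from 2545 higher and 2727 lower into 3577 and 1944. Since scaling shifts the log2 changes of all genes nearly alike, the members' changes necessarily stayed close once that shift was subtracted, within 0.012. This residual is therefore not a test of the scaling. The count of 8 lower members was the same with library totals.

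**Figure D1:**
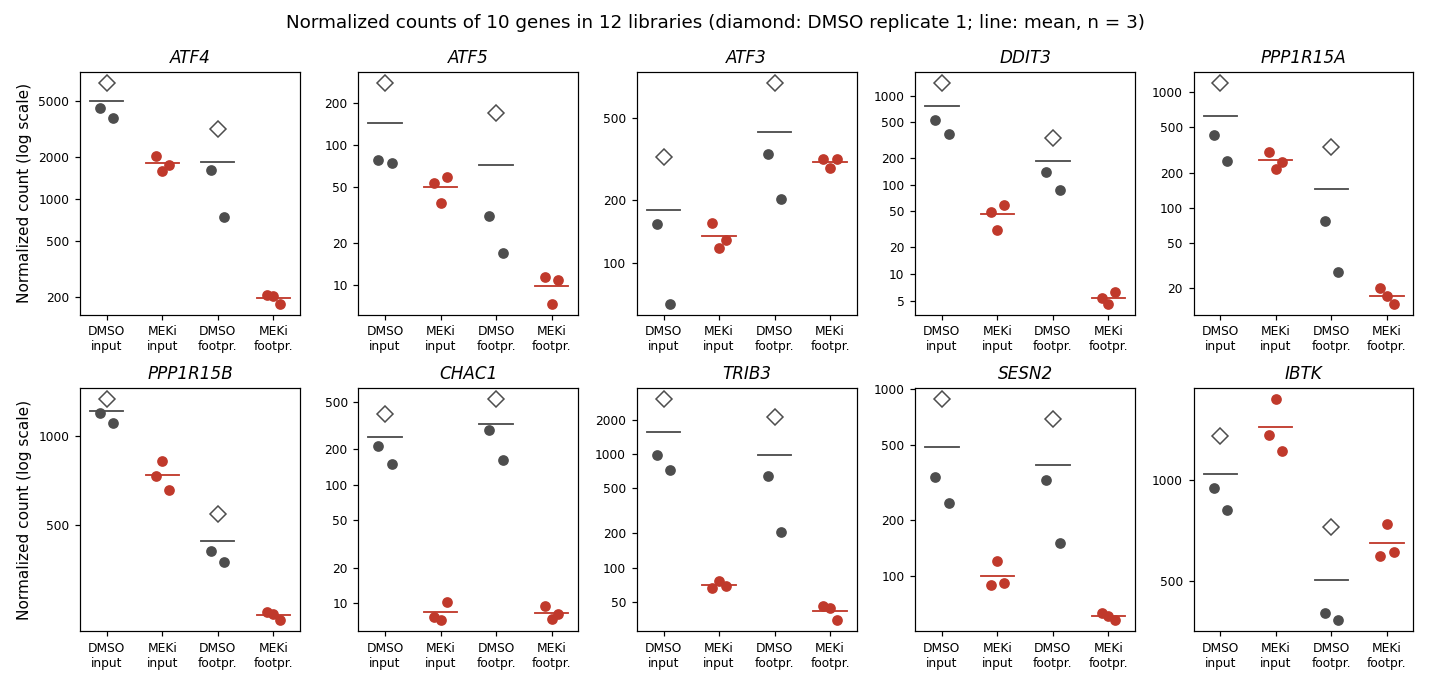
Normalized counts (log axis) of the 10 regulators in each of the 12 libraries, with 3 libraries per group and a line at the group mean; grey marks DMSO, red trametinib (MEKi), and the open diamond DMSO replicate 1. DMSO replicate 1 is the highest DMSO library in all 20 combinations of gene and assay, and in trametinib the libraries of a group lie close together.

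ATF4, the central transcription factor of the ISR (chromosome 22, 39519695 to 39522683, plus strand), was the most abundant member per length of coding sequence, with 4759 ± 1476 normalized input counts per kb in DMSO (SD, n = 3), and 3930 over DMSO replicates 2 and 3. Its raw input counts were 3132 in DMSO replicate 1, 2083 and 1613 in DMSO replicates 2 and 3, and 664, 791 and 683 in trametinib. Its raw footprint counts were 8613 in DMSO replicate 1, 2480 and 2031 in the other DMSO replicates, and 656, 500 and 375 in trametinib. Every DMSO library lay above every trametinib library in both assays, before and after division by the size factors. Input fell from 5011 ± 1554 to 1796 ± 222 normalized counts, a log2 change of -1.47 (SE 0.20, edgeR adjusted p = 1.56e-04). Footprints fell further, from 1846 ± 1228 to 195 ± 14.6, a log2 change of -3.24 (SE 0.45, edgeR adjusted p = 4.89e-04). Without DMSO replicate 1 these changes were -1.20 and -2.58 and remained past the threshold.

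ATF5, a transcription factor of the same family with a similarly arranged leader (chromosome 19, 49928702 to 49933935, plus strand), was measured on few counts. Input held 129 counts in DMSO replicate 1, 36 and 32 in the other DMSO replicates, and 16, 21 and 23 in trametinib. Footprints held 461, 48 and 46 counts in DMSO replicates 1 to 3 and 24, 28 and 23 in trametinib. DMSO replicate 1 was thus well above all others, and the remaining DMSO libraries were nearer to trametinib than to it. The log2 changes were -1.50 in input (SE 0.48, edgeR adjusted p = 0.0289) and -2.92 in footprints (SE 0.82, edgeR adjusted p = 0.0164). Without DMSO replicate 1 the input change was -0.59 and was no longer called (edgeR adjusted p = 0.131), while the footprint change of -1.22 was (edgeR adjusted p = 0.00433). The input call was also lost without any single trametinib input library, and the footprint call without any single trametinib footprint library (edgeR adjusted p = 0.0507 to 0.0593).

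ATF3, a stress-induced transcription factor with many inputs besides ATF4 (chromosome 1, 212565334 to 212620777, plus strand), did not change past the threshold. Its input counts were 150, 71 and 27 in DMSO and 49, 60 and 50 in trametinib. In footprints it held 2002, 514 and 553 in DMSO and 934, 767 and 665 in trametinib. DMSO replicate 1 was the highest library in normalized counts in both assays, and of the other DMSO replicates one lay below the trametinib range and one within it (input) or above it (footprints). The log2 change was -0.43 in input (95% CI -1.33 to 0.47) and -0.48 in footprints (95% CI -1.35 to 0.39), and both turned to values above 0, 0.30 and 0.21, without DMSO replicate 1. Without DMSO replicate 3 they were -0.82 and -0.81 and were called (edgeR adjusted p = 0.0467 and 0.0413).

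DDIT3, which encodes the C/EBP-family factor CHOP (chromosome 12, 57516588 to 57521737, minus strand), was among the members with the strongest decrease. Its input counts were 642 in DMSO replicate 1, 245 and 156 in DMSO replicates 2 and 3, and 13, 19 and 23 in trametinib. Footprints gave 897, 214 and 237 in DMSO and 15, 13 and 13 in trametinib. The groups were widely separated in both assays, also without DMSO replicate 1. Input changed by -4.03 (SE 0.48, edgeR adjusted p = 4.53e-05) and footprints by -5.13 (SE 0.56, edgeR adjusted p = 1.25e-04) on the log2 scale, and without DMSO replicate 1 by -3.26 and -4.38.

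The 2 genes for the subunits that direct protein phosphatase 1 to eIF2 differed in the size of their changes. PPP1R15A, the stress-induced subunit known as GADD34 (chromosome 19, 48872212 to 48876059, plus strand), had input counts of 560, 198 and 108 in DMSO and 91, 118 and 97 in trametinib. For its footprints they were 905, 119 and 76 in DMSO and 56, 49 and 31 in trametinib. In normalized input counts the lowest DMSO library, at 252.9, lay below the highest trametinib library, at 304, whereas in footprints the groups were apart. The log2 change in input was -1.29 (SE 0.43, edgeR adjusted p = 0.0360), and it was -0.40 and not called without DMSO replicate 1 (edgeR adjusted p = 0.176). The input call was also absent with the DESeq2 Wald test (adjusted p = 0.142) and limma (adjusted p = 0.0835), and without any single trametinib library. In footprints the log2 change was -3.09 (SE 0.80, edgeR adjusted p = 0.0115), it was -1.50 without DMSO replicate 1, which was still called, and it missed the threshold without trametinib replicate 3 (edgeR adjusted p = 0.0538).

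PPP1R15B, the constitutive subunit known as CReP (chromosome 1, 204396492 to 204411887, minus strand), varied little among the DMSO replicates. Its input counts were 615, 553 and 470 in DMSO and 341, 284 and 256 in trametinib. Its footprints held 1485, 628 and 1019 in DMSO and 821, 622 and 506 in trametinib. After division by the size factors no DMSO library overlapped with trametinib. The log2 changes were -0.71 in input (SE 0.15, edgeR adjusted p = 0.00341) and -0.83 in footprints (SE 0.15, edgeR adjusted p = 0.00203), and -0.63 and -0.64 without DMSO replicate 1. These were the smallest changes among the called members.

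CHAC1, which degrades glutathione and is induced through ATF4 (chromosome 15, 40952962 to 40956512, plus strand), had the largest fitted decrease of the 10. Its input counts were 182 in DMSO replicate 1, 99 and 64 in DMSO replicates 2 and 3, and 3, 3 and 4 in trametinib. The trametinib counts lay under the filter's minimum of 10, so that its DMSO counts alone let it be tested. In footprints the counts were 1436, 446 and 437 in DMSO and 24, 23 and 17 in trametinib. In total 345 DMSO and 10 trametinib input counts gave a ratio of 30.4 after scaling, with an exact 95% interval of 16.3 to 64.0 that covers counting error only. The fitted log2 changes were -4.86 in input (SE 0.46, edgeR adjusted p = 6.22e-06) and -5.30 in footprints (SE 0.47, edgeR adjusted p = 4.00e-05), and -4.39 and -4.74 without DMSO replicate 1. With a filter on the mean count over the libraries, the input change was -4.85 (edgeR adjusted p = 6.57e-06). CHAC1 passed that filter through its DMSO counts too, so that fit does not check the part of the filter. With no filter the input change was -4.88 (edgeR adjusted p = 6.08e-12).

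TRIB3, a pseudokinase that ATF4 and CHOP induce and that dampens their activity (chromosome 20, 362835 to 397559, plus strand), had input counts of 1403, 451 and 306 in DMSO and 32, 26 and 27 in trametinib. Among footprints it had 5753, 977 and 564 in DMSO and 144, 112 and 73 in trametinib. DMSO replicate 1 was far above the other DMSO replicates, yet the lowest of these was still well above trametinib. The log2 changes were -4.45 in input (SE 0.50, edgeR adjusted p = 2.47e-05) and -4.57 in footprints (SE 0.77, edgeR adjusted p = 0.00130), and -3.56 and -3.30 without DMSO replicate 1.

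SESN2, a leucine sensor that restrains mTORC1 (chromosome 1, 28259518 to 28282491, plus strand), had input counts of 409, 157 and 105 in DMSO and 50, 35 and 36 in trametinib. Footprints amounted to 1886, 502 and 409 counts in DMSO and 201, 155 and 123 in trametinib. Each DMSO library exceeded each trametinib library in both assays. The log2 changes were -2.27 in input (SE 0.41, edgeR adjusted p = 0.00104) and -2.68 in footprints (SE 0.48, edgeR adjusted p = 0.00181), and -1.52 and -1.92 without DMSO replicate 1.

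IBTK, an adaptor of a ubiquitin ligase whose mRNA also carries several upstream start codons (chromosome 6, 82169986 to 82247754, minus strand), moved the other way. Its input counts were 628, 440 and 349 in DMSO and 725, 531 and 477 in trametinib. As footprints it had 1964, 616 and 1039 in DMSO and 2417, 1444 and 1282 in trametinib. DMSO replicate 1 fell within the range of the trametinib libraries in both assays, and the other DMSO replicates lay below it in normalized counts. The log2 changes of 0.48 in input (95% CI 0.05 to 0.91, edgeR adjusted p = 0.0828) and 0.36 in footprints (95% CI -0.18 to 0.90, edgeR adjusted p = 0.231) were not called. Without DMSO replicate 1 they were 0.72 and 0.74 and were called (edgeR adjusted p = 0.00288 and 1.22e-04). The fit with the replicate number as a block called IBTK as well, at 0.50 in input (edgeR adjusted p = 0.00986) and 0.42 in footprints (edgeR adjusted p = 0.0468). Whether these numbers pair the dishes of the treatments was not settled.

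**Figure D2:**
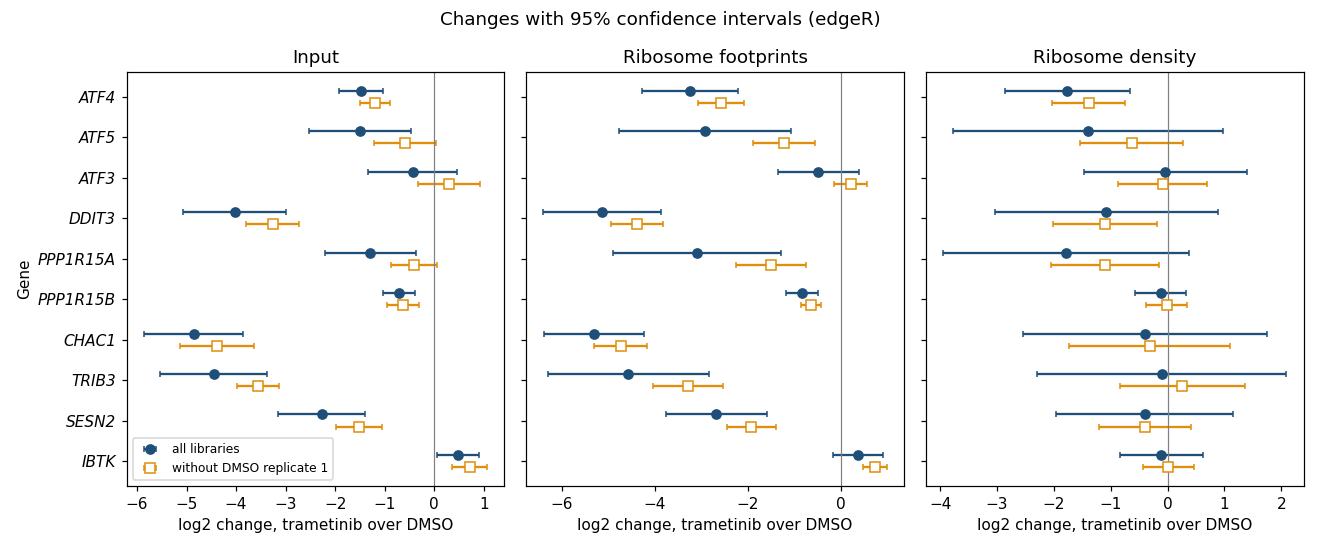
Log2 change of trametinib over DMSO for each regulator in input, footprints and ribosome density, with 95% confidence intervals from edgeR; filled circles use all libraries and open squares leave out DMSO replicate 1 (both of its libraries for density). The 8 members called lower in footprints stay below 0 without DMSO replicate 1, while ATF3 moves across 0 in input and footprints.

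In 7 members each DMSO input library lay above each trametinib input library in normalized counts, against 23.3% of all tested genes, and in footprints this held for 8 members, against 30.3%. The 7 include CHAC1, which passed the filter only through its DMSO libraries. The exception among the members called lower in input was PPP1R15A. Per kb of coding sequence, mean DMSO footprint levels were highest for ATF4, at 1753 ± 1166, and TRIB3, at 920 ± 934 normalized counts (SD, n = 3), and lowest for ATF5, at 85.9 ± 99.8, and PPP1R15A, at 72.3 ± 81.1. Over DMSO replicates 2 and 3 alone the order changed: the means were 1123 for ATF4, 496 for ATF3 and 393 for TRIB3, and at the low end 28.5 for ATF5 and 26.1 for PPP1R15A. DMSO replicate 1 widened the SDs over all 3 replicates, and neighbours in this order did not differ beyond their spread. In trametinib, footprint levels per kb were highest for ATF3, at 564 ± 30.7, followed by ATF4, at 185 ± 13.9, and IBTK, at 160 ± 20.2, and the first of these was apart from the others. The lowest were those of CHAC1, ATF5, DDIT3 and PPP1R15A, between 8.59 and 12.5, which did not differ beyond their spread except PPP1R15A from CHAC1.

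The third question was whether ribosome density, the footprints of an mRNA relative to its input, changed beyond mRNA abundance. In the test of the interaction of assay and treatment over all 12 libraries, 0 of the 10 members were called in either direction, against 1.00% of all genes with lower and 0.0469% with higher density. An unadjusted p under 0.05 was reached by 1 member, ATF4, and by 866 of all genes. All 10 estimates were below 0, with a median of -0.40 over the members and 0.00 over all genes, but 6 of them, for ATF3, TRIB3, IBTK, PPP1R15B, CHAC1 and SESN2, were only -0.04 to -0.40. The SE of the density change was 0.51 for ATF4 and 1.11 for ATF5, against a median of 0.27 over all genes.

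ATF4 had the lowest p of the members, with a ribosome density change of -1.76 (SE 0.51, 95% CI -2.86 to -0.66, edgeR adjusted p = 0.208). Its density was 0.470 in DMSO dish 1, 0.359 and 0.198 in DMSO dishes 2 and 3, and 0.126, 0.101 and 0.102 in trametinib, as the ratio of normalized footprint to normalized input counts. All DMSO dishes lay above all trametinib dishes. In a paired fit, where input and footprints from one dish are matched by number, ATF4 was called at -1.57 (edgeR adjusted p = 0.00171). It was also called in the DESeq2 likelihood ratio test at -1.76 (adjusted p = 0.0384), without DMSO footprint replicate 3 at -2.14 (edgeR adjusted p = 0.00802), and without both libraries of DMSO replicate 1 at -1.39 (edgeR adjusted p = 0.0227). Of the 13 fits that left out libraries, the other 11 did not call it (edgeR adjusted p = 0.108 to 0.483), among them the fit without DMSO footprint replicate 1, at -1.11 (edgeR adjusted p = 0.216). In the fit without both libraries of DMSO replicate 1, ATF4 was the only one of the 10 with lower density, against 1.30% of all genes, and 0 were higher, against 0.131%. Over the alternatives with all libraries the adjusted p of ATF4 ranged from 0.00171 to 0.344.

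PPP1R15A had a ribosome density of 0.276 in DMSO dish 1, 0.181 and 0.111 in dishes 2 and 3, and 0.0786, 0.0663 and 0.0591 in trametinib. These groups did not overlap, and the change of -1.79 was not called (SE 1.01, 95% CI -3.95 to 0.37, edgeR adjusted p = 0.739). In the paired fit by dish it was called at -1.49 (edgeR adjusted p = 0.0146). It was -1.10 and not called without both libraries of DMSO replicate 1 (edgeR adjusted p = 0.409), and -0.22 without the footprint library alone (edgeR adjusted p = 0.944). ATF5 had densities of 0.610, 0.402 and 0.226 in DMSO and 0.191, 0.213 and 0.185 in trametinib, where the lowest DMSO dish was just above the highest trametinib dish. Its change of -1.40 (SE 1.11, edgeR adjusted p = 0.876) was -0.63 without both libraries of DMSO replicate 1, and not called in either case. DDIT3 had densities of 0.239, 0.263 and 0.239 in DMSO and 0.147, 0.109 and 0.105 in trametinib, so that here DMSO dish 1 resembled the others. Its change of -1.08 (SE 0.92, 95% CI -3.04 to 0.88) was not called under any setting that kept all libraries (adjusted p = 0.0996 to 1.00), on trametinib counts of 13 to 23 per library. Without both libraries of DMSO replicate 1 it was -1.10 (edgeR adjusted p = 0.375).

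These 4 members were the ones whose DMSO and trametinib dishes did not overlap, 4 of 10 against 8.99% of the 10627 genes with a density in every dish. All 4 have at least 2 upstream start codons, and 3 of them are the members with an upstream frame that overlaps the coding sequence. PPP1R15B, TRIB3 and IBTK have at least 2 upstream start codons too, and their dishes overlapped. TRIB3 had densities of 0.700, 0.653 and 0.290 in DMSO and 0.574, 0.688 and 0.50 in trametinib. PPP1R15B had 0.412, 0.342 and 0.341 in DMSO and 0.307, 0.350 and 0.366 in trametinib, and its change of -0.12 had a 95% CI of -0.57 to 0.33, the narrowest of the 10, and was -0.013 without both libraries of DMSO replicate 1. The sign of the estimates for ATF3, PPP1R15B, TRIB3 and IBTK depended on the scaling or the test.

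**Figure D3:**
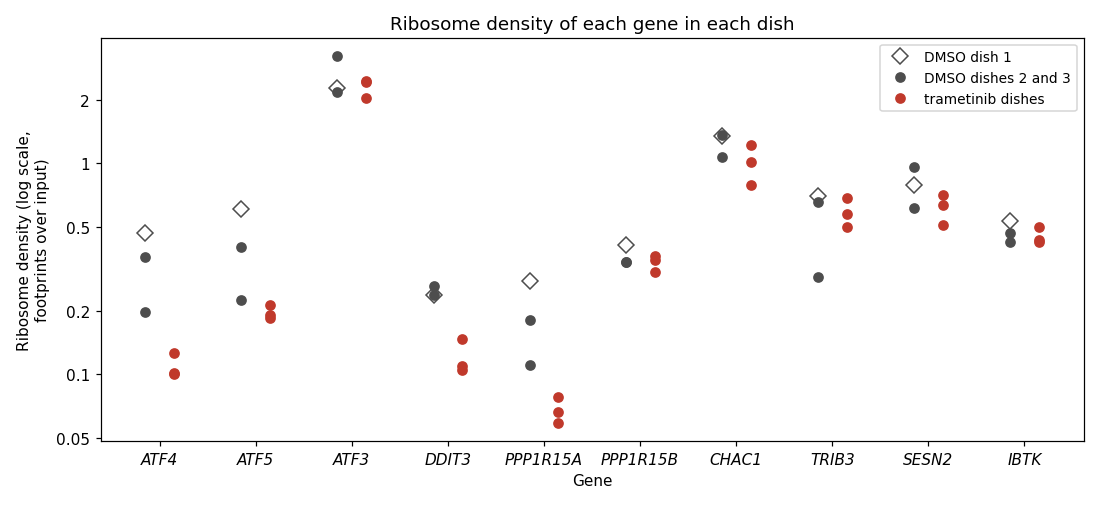
Ribosome density (log axis, normalized footprint counts divided by normalized input counts) of each regulator in each dish; open diamonds are DMSO dish 1, grey circles DMSO dishes 2 and 3, red circles the 3 trametinib dishes. The dishes of the 2 treatments are separate for ATF4, ATF5, DDIT3 and PPP1R15A and overlap for the other 6 genes.

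The level of density also differed among the regulators within DMSO. The median density over the 3 DMSO dishes was lowest for PPP1R15A, with only 1.96% of tested genes below it. The share of tested genes with a lower density was 3.56% for DDIT3, 7.50% for PPP1R15B, 8.34% for ATF4, 10.6% for ATF5 and 14.2% for IBTK. TRIB3, with 26.2%, and SESN2, with 35.4%, lay nearer the middle. The members with no upstream AUG were the highest, CHAC1 with 66.7% and ATF3 with 90.2% of genes below them. In trametinib these shares were 0.30% for PPP1R15A, 0.73% for ATF4 and 0.84% for DDIT3. This order is a description over 10 genes. Ribosomes on upstream frames are not counted and their part was not tested.

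DMSO replicate 1 was the highest of the DMSO libraries for every member in both assays. Relative to the mean of DMSO replicates 2 and 3, its normalized footprints were 7.04-fold higher for ATF5, 6.32-fold for PPP1R15A, 5.02-fold for TRIB3 and 2.68-fold for ATF4. In input the same ratios were 3.64, 3.55, 3.58 and 1.63. The smallest ratios were those of PPP1R15B, 1.16 in input and 1.39 in footprints. Among all tested genes ranked by this ratio in footprints, ATF5 was 8th, PPP1R15A 11th and TRIB3 17th. The deviations of the input and footprint libraries of DMSO replicate 1 from their group means correlated with Pearson's r of 0.816 across 7669 genes, which are not independent replicates, against 0.181 and 0.343 for DMSO replicates 2 and 3.

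**Figure D4:**
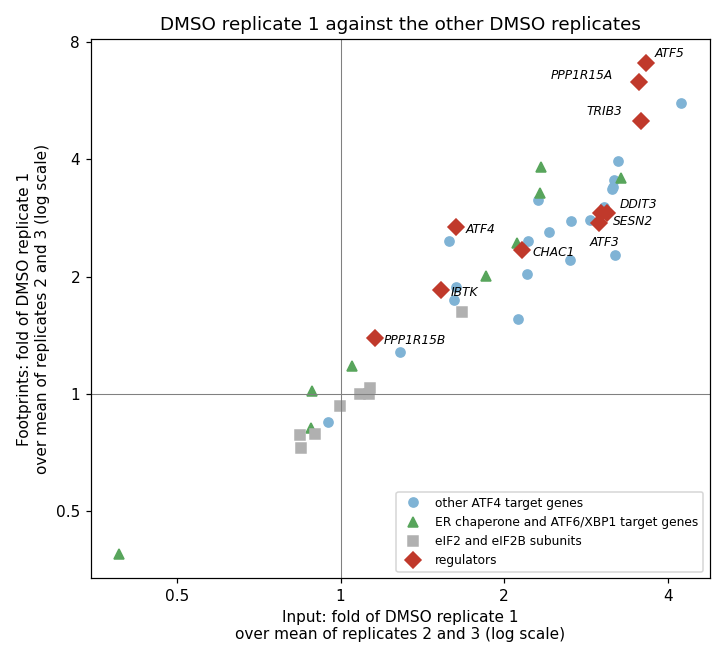
Fold of DMSO replicate 1 over the mean of DMSO replicates 2 and 3 in input (horizontal, log axis) and footprints (vertical, log axis) for the 10 regulators (red diamonds) and the tested genes of 3 lists. All 10 regulators lie above 1 in both assays, and the eIF2 and eIF2B subunits lie around 1.

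Genes around the regulators were described from lists, in the order of the pathway. These lists too were chosen with earlier results of these data known. The calls are read against all tested genes, of which 16.8% were lower and 15.4% higher in input, and 25.6% and 23.9% in footprints. Without DMSO replicate 1 these shares were 18.0% and 16.6% in input, and 30.5% and 29.8% in footprints. In ribosome density they were 1.00% and 0.0469%. The 4 eIF2 kinase genes (EIF2AK1 to EIF2AK4, encoding HRI, PKR, PERK and GCN2) were not called in input. In footprints 3 were higher, PERK (EIF2AK3) with a log2 change of 0.83, PKR (EIF2AK2) with 0.62 and HRI (EIF2AK1) with 0.33. Without DMSO footprint replicate 1 all 4 were higher. None was called in ribosome density. Of 4 genes for proteins that signal to these kinases, 2 were lower in footprints, DELE1, which relays mitochondrial stress to HRI, with -0.70, and GCN1, the partner of GCN2, with -0.53, and 0 were called in input. Without DMSO replicate 1, GCN1 was lower in input too, and IMPACT, an inhibitor of GCN2, named because of this call, was higher in footprints with 0.34.

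The genes for eIF2 and eIF2B, the substrate and its exchange factor, were lower as well. Of 8 subunit genes, 5 were lower in input, against 16.8% of all tested genes, and 7 in footprints, against 25.6%. None was higher in either, and the list medians were -0.80 and -0.93. In input the strongest were EIF2B3 with a log2 change of -1.26, EIF2B2 with -1.06, EIF2B1 with -0.88 and EIF2S2 with -0.86. In footprints they were EIF2S2 with -1.40, EIF2B2 with -1.37, EIF2B3 with -1.31 and EIF2S1 with -1.0. EIF2S3, the gamma subunit of eIF2, was the only one called in ribosome density, at -0.82 (SE 0.15, edgeR adjusted p = 0.0140). The numbers of calls were the same without DMSO replicate 1, which was no more than 1.67-fold from the other DMSO replicates for any of the 8 in either assay.

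The C/EBP genes, whose products pair with ATF4 and CHOP, moved in different directions. CEBPG was lower in input, with a log2 change of -1.65, and in footprints, with -1.49, and CEBPD was higher in input, with 1.36. Without DMSO input replicate 1 the input change of CEBPG was -0.89 and was not called (edgeR adjusted p = 0.0769), and 1 gene, CEBPD, was then also higher in footprints. Of these 4 genes, 3 were at least 2-fold above the other DMSO replicates in DMSO replicate 1 in both assays.

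Of 27 other ATF4 target genes, 26 were listed and 20 passed the filter; ASNS was not analysed here. In both input and footprints 17 of the 20 were lower, against 16.8% and 25.6% of all tested genes. In both, 0 were higher, and the medians were -1.86 and -1.87. The strongest in both were GDF15, a secreted stress cytokine, with -4.33 and -5.00, STC2, a secreted glycoprotein, with -3.49 and -3.56, PSAT1, an enzyme of serine synthesis, with -3.33 and -3.02, and SLC7A11, the cystine transporter, with -2.71 and -3.00. Without DMSO replicate 1, 16 were lower in input and 17 in footprints, with 0 and 1 higher and medians of -1.14 and -1.15. DMSO replicate 1 was at least 2-fold above the other DMSO replicates for 15 of the 20 in each assay. In ribosome density 0 were called, with a median of -0.16, and 1 was lower without both libraries of DMSO replicate 1, SHMT2, which is named because of this call, with -0.67 (edgeR adjusted p = 0.0498).

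The remaining lists are read against the same shares, 16.8% lower and 15.4% higher of all tested genes in input, and 25.6% and 23.9% in footprints. Among mRNAs with known inhibitory upstream frames outside the members, 3 of 5 passed the filter, 0 were called in input or ribosome density, and 2 were lower in footprints, EPRS1, a tRNA synthetase, with -0.89, and PNRC2 with -0.39, and without DMSO footprint replicate 1 all 3 were lower. Of 9 ER chaperone genes and targets of ATF6 and XBP1, the other arms of the response to misfolded proteins, 1 was lower in input, HERPUD1 with -0.87. In footprints HERPUD1 was lower, with -1.32, and 3 were higher, DNAJC3 with 0.73, HSP90B1 with 0.60 and PDIA4 with 0.54. Without DMSO replicate 1 the counts for this list were 1 lower and 0 higher in input, where HERPUD1 was no longer called, and 2 lower and 4 higher in footprints. In DMSO replicate 1, 4 of the 9 in input and 5 in footprints were at least 2-fold above the other DMSO replicates. HSPA5, the chaperone BiP, named after its values were seen, had 16316 normalized input counts there against 5784 and 4158, and 4882 to 5785 in trametinib. The part of these ER genes in the members' changes was not tested. Of 8 p53 target genes, 3 were higher in input, ZMAT3 with 0.91, TP53I3 with 0.88 and BBC3 with 0.82. In footprints 3 were higher, TP53I3 with 0.98, ZMAT3 with 0.52 and BAX with 0.41, and FAS was lower with -0.54, and without DMSO footprint replicate 1, 4 were higher.

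The 5 genes whose log2 CPM most resembled that of ATF4 over the 12 libraries, with each assay's mean subtracted and among 9320 genes of at least 100 mean footprint counts, were SHMT2, TSC22D1, IER3, PMAIP1 and ZSCAN9, with Pearson's r of 0.964 to 0.975. The 12 libraries share treatment and dish, so that r is a description. Among the members DDIT3 ranked 9th, with r of 0.957, followed by SESN2 at 20th, TRIB3 at 25th and CHAC1 at 27th. PPP1R15B ranked 78th, PPP1R15A 86th and ATF5 157th. ATF3, with r of 0.400, and IBTK, with -0.43, were far from it.

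The promoters of the members were searched for the letters TGATGCAA, a form of the C/EBP-ATF response element that ATF4 binds as a heterodimer, on both strands of the window from 250 bases before to 50 after each RefSeq gene start (GRCh38.p14). Of 10 members with a window 2 held it, CHAC1 and PPP1R15B, the members with the largest and the smallest fitted decrease among those called, against 1.08% of 27305 genes. Stretches around the match are shown on the gene's strand with the match in capitals, CHAC1 at chr15:40953221-40953329 on the plus strand and PPP1R15B at chr1:204411977-204412067 on the minus strand. In CHAC1 the match is to the complementary strand.
CHAC1: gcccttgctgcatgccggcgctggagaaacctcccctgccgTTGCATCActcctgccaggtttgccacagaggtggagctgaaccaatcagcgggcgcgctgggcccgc
PPP1R15B: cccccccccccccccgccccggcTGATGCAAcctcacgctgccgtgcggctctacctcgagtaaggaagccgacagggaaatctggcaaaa

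The match begins 209 bases before the RefSeq start in CHAC1, at 40953471, and 227 before that in PPP1R15B, at 204411817. Both RefSeq starts lie downstream of the outermost Gencode start given above, and the CHAC1 match falls inside the Gencode gene span. A match of letters is not a measured binding site, and other spellings of the element were not searched.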

How the data were processed

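Ribo-seq counts of 12 libraries were analysed. According to the study's methods, the authors trimmed adapters, removed rRNA and tRNA reads with Bowtie 1.2.2, mapped the rest to the Gencode V38 basic set and counted reads of 25 to 35 nt on annotated reading frames of one symbol. The deposited table holds raw counts and a normalized signal, the counts divided by the authors' DESeq2 1.46.0 size factors, which was used for levels and densities. Its 6 columns of fold changes, adjusted p-values and gene marks were not used. The filter kept genes that reached 10 counts in 3 or more of the input libraries, and these were tested with edgeR 4.0.16 (R 4.3.3), using TMM factors within input and footprints and median-of-ratios factors for the interaction over all libraries. P-values were adjusted by Benjamini-Hochberg and called under 0.05. DESeq2 1.42.0, limma 3.58.1, other scalings and filters, blocks and each library left out were alternatives. Scripts were tested on simulated counts without a replicate like DMSO replicate 1, so that test does not cover the members' spread in DMSO. Named genes were all members, up to 4 called genes per list by size of change and the 5 genes most like ATF4. The members and lists were chosen with earlier results of these data known.

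Deviations from group means of same-numbered DMSO and trametinib libraries correlated at 0.117, 0.133 and 0.294 in footprints. In input they correlated at 0.0680, 0.0484 and 0.334. Libraries of unlike number were not compared, so that these values do not settle whether the numbers pair dishes of the treatments. Input and footprints of one number were taken as one dish, since the methods draw both from one lysate; for DMSO these pairs had r of 0.816, 0.181 and 0.343, for trametinib r of 0.141, 0.0803 and -0.12. P-values measure the spread between these replicates. Reference sequences came from Gencode v44 and RefSeq on GRCh38.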

Additional observations from a re-analysis of the deposited data

How the results depend on the processing

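Over the settings that kept all libraries, 67 of 70 member values in input, 69 of 70 in footprints and 68 of 80 in ribosome density were neither reversed nor moved across the threshold. The 8 called footprint decreases held in every one of these settings, and in input only PPP1R15A lost its call, with the DESeq2 Wald test and limma. With the replicate block, IBTK was called higher, which made 1 member in input, at 0.50, and 1 in footprints, at 0.42. Whether the numbers pair dishes of DMSO and trametinib was not settled, and the block raised no other member past the threshold in input or footprints. In ribosome density the replicate block by dish called 2 members lower and the DESeq2 likelihood ratio test 1. No setting called a member higher in density. The cause of these differences was not tested.

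The number of genes with higher density was 5, and it was 10 with TMM, 27 with library totals (78 lower, with the median of all genes raised by 0.18), 37 with the DESeq2 likelihood ratio test, 8 with the replicate block and 19 with the replicate block by dish. When libraries were left out it ranged from 1, without trametinib footprint replicate 1, to 14, without both libraries of DMSO replicate 1, and the number with lower density from 68, without trametinib footprint replicate 2, to 139, without both libraries of DMSO replicate 1. Genes with higher input ranged from 1069, without trametinib input replicate 2, to 1767, without DMSO input replicate 1. Members called higher in input or in footprints, and members called lower in density, each ranged from 0 to 1. Members called lower in input ranged from 6, without DMSO input replicate 1, to 9, without DMSO input replicate 3. In footprints they ranged from 6, without trametinib footprint replicate 3, to 9, without DMSO footprint replicate 3.

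Uncalled density estimates changed sign. With TMM that of ATF3 was 0.030, and with library totals those of ATF3, PPP1R15B, TRIB3 and IBTK were 0.13, 0.055, 0.063 and 0.064. TRIB3 was at 0.21 with limma, 0.17 with the replicate block and 0.16 with the replicate block by dish, and ATF3 at 0.034 with the replicate block. With libraries left out, the density change ranged from -2.32 to 0.29 for ATF5, from -0.77 to 0.64 for ATF3, from -0.23 to 0.061 for PPP1R15B, from -0.87 to 0.15 for CHAC1, from -0.995 to 1.15 for TRIB3, from -1.14 to 0.33 for SESN2 and from -0.35 to 0.25 for IBTK. All 7 were highest without DMSO footprint replicate 1. So were the members whose density estimate kept its sign, with ranges of -2.14 to -1.11 for ATF4, -2.68 to -0.22 for PPP1R15A and -1.85 to -0.34 for DDIT3. For ATF3 the input change lay between -0.82 and 0.30 and the footprint change between -0.81 and 0.21. Depth limits ATF5, DDIT3 and CHAC1 most, which held 3 to 28 counts in each trametinib library.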
